A study of Mus musculus with 8 samples.

Results

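The 39 genes described here encode the nuclear subunits of respiratory complexes II, III, IV and V and cytochrome c. They were chosen by name and not by their values, from 41388 genes in the deposited tables, and all 39 were found there under a single identifier each. The list holds 4 genes of complex II, 9 of complex III, 1 for cytochrome c, 10 of complex IV and 15 of complex V. The cells came from epididymal white adipose tissue (eWAT), a visceral fat depot, and were macrophages of 4 male MitoFat mice fed normal chow. This is a strain whose reporter marks adipocyte mitochondria, so a macrophage that carries the reporter (mtD2+) is taken by the submitters to have received mitochondria from adipocytes, and a macrophage without it (mtD2−) not to have. Both populations were sorted from the collagenase-freed stromal vascular fraction of each mouse as live CD45+ F4/80+ CD64+ cells, which gave 4 mtD2− and 4 mtD2+ libraries paired by mouse. Both groups share the strain, the sex, the diet and the sort apart from the reporter. The sources used here do not give the age of the mice, the promoter that drives the reporter or how many cells were sorted.

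The respiratory chain sits in the inner mitochondrial membrane. Complex II (succinate dehydrogenase) passes electrons from succinate to ubiquinone, complex III passes them from ubiquinol to cytochrome c, and complex IV (cytochrome c oxidase) passes them from cytochrome c to oxygen. Complexes III and IV pump protons, and complex V (ATP synthase) lets the protons back to make ATP. Complex II is encoded in the nucleus alone, while complexes III, IV and V each combine nuclear subunits with subunits of the mitochondrial genome. In macrophages the chain is known for its role in alternative activation and, through succinate and complex II, in inflammatory activation.

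The libraries held 18462287 to 27464399 counts each. Levels are given as CPM, counts relative to the library's size, scaled with edgeR's TMM factors over the 15374 genes that passed its filter on low counts. Log2 fold changes are mtD2+ over mtD2− from edgeR's quasi-likelihood test with the mouse as a block, with their standard error (SE) and a p-value adjusted by Benjamini-Hochberg over all 15374 genes. A gene was called at an adjusted p under 0.05. On the first principal component, which took 24.2% of the variance, mouse 4 of mtD2− had the most extreme score at −84.1, against −44.4 to −4.8 for the other mtD2− libraries and 22.0 to 65.3 for the mtD2+ libraries. The macrophage markers were at 12354 to 13570.0 CPM in sum in mtD2− and at 11535 to 13149 CPM in mtD2+. Among them Adgre1, which encodes the sorted marker F4/80, was called lower in mtD2+ (log2 fold change −0.55, adjusted p = 0.0383), and Mertk, a receptor for apoptotic cells, was called higher (log2 fold change 0.51, adjusted p = 0.0412). Fcgr1, which encodes the sorted marker CD64 and is named after its values were seen, was not called. It was lower in mtD2+ in each mouse with no overlap (log2 fold change −0.44, adjusted p = 0.0656). Of the 9 macrophage markers, 5 had a negative and 4 a positive log2 fold change.

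Transcripts of 36 of the 39 genes stood lower in mtD2+ than in mtD2− macrophages in the fit, by a small amount each, and the exceptions were Cycs, Atp5g1 and Atp5g2. The median log2 fold change over the 39 genes was −0.29, a level 18.3% lower, with an interquartile range of −0.38 to −0.23. Over all 15374 genes the median was 0.01, the interquartile range −0.29 to 0.43, and 49.1% of the fold changes were negative. No gene of the 39 passed the adjusted threshold in edgeR's test: the adjusted p-values ran from 0.0644 to 0.946, and 4.51% of all genes were called, 1.39% as lower and 3.12% as higher. At an unadjusted p under 0.05 in the same edgeR test, 18 of the 39 (46.2%) were lower, against 10.1% of all genes, and Cycs alone was higher, against 11% of all genes. DESeq2 on the same counts and design called 12 of the 39, 11 as lower and Cycs as higher, and 11.7% of all genes. edgeR fits that left out a mouse called 0 of the 39 each, and 0.938% to 3.50% of all genes. In these fits 11 to 17 of the 39 had an unadjusted p under 0.05 in either direction, against 16.0% to 19.5% of all genes.

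The direction was shared by the mice. In 28 of the 39 genes (71.8%) mtD2+ was below mtD2− within each of the 4 mice, which held for 14.9% of all genes, and in Cycs and Atp5g2 mtD2+ was above it within each mouse. The median log2 ratio of the 39 genes was −0.25, −0.17, −0.47 and −0.34 in mice 1 to 4, against all-gene medians of −0.03, 0.00, −0.01 and 0.01. The ratio was thus nearest to 0 in mouse 2 and farthest from it in mouse 3. The fitted median without mouse 4, whose mtD2− library stood apart, was −0.295. Together the 39 genes took 0.384%, 0.443%, 0.372% and 0.423% of all counts in mtD2− (mice 1 to 4 in order), and 0.309%, 0.364%, 0.256% and 0.315% in mtD2+, so that the highest mtD2+ share lay just under the lowest mtD2− share. These are shares of the library totals without TMM scaling. In TMM-scaled CPM the sum of the 39 genes was 3505.5 to 4591.7 in mtD2− and 2557.0 to 3710.6 in mtD2+, and these ranges overlapped. The 4 mtD2+ values lay below all 4 mtD2− values in 7 of the 39 genes (17.9%), namely Uqcrc1, Uqcrc2, Uqcrfs1, Uqcrh, Cox6c, Atp5d and Atp5f1, against 5.57% of all genes, and above them in Cycs, against 6.22% of all genes. In sorted bulk samples, fewer cells with high levels and less RNA per cell cannot be told apart.

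**Figure D1:**
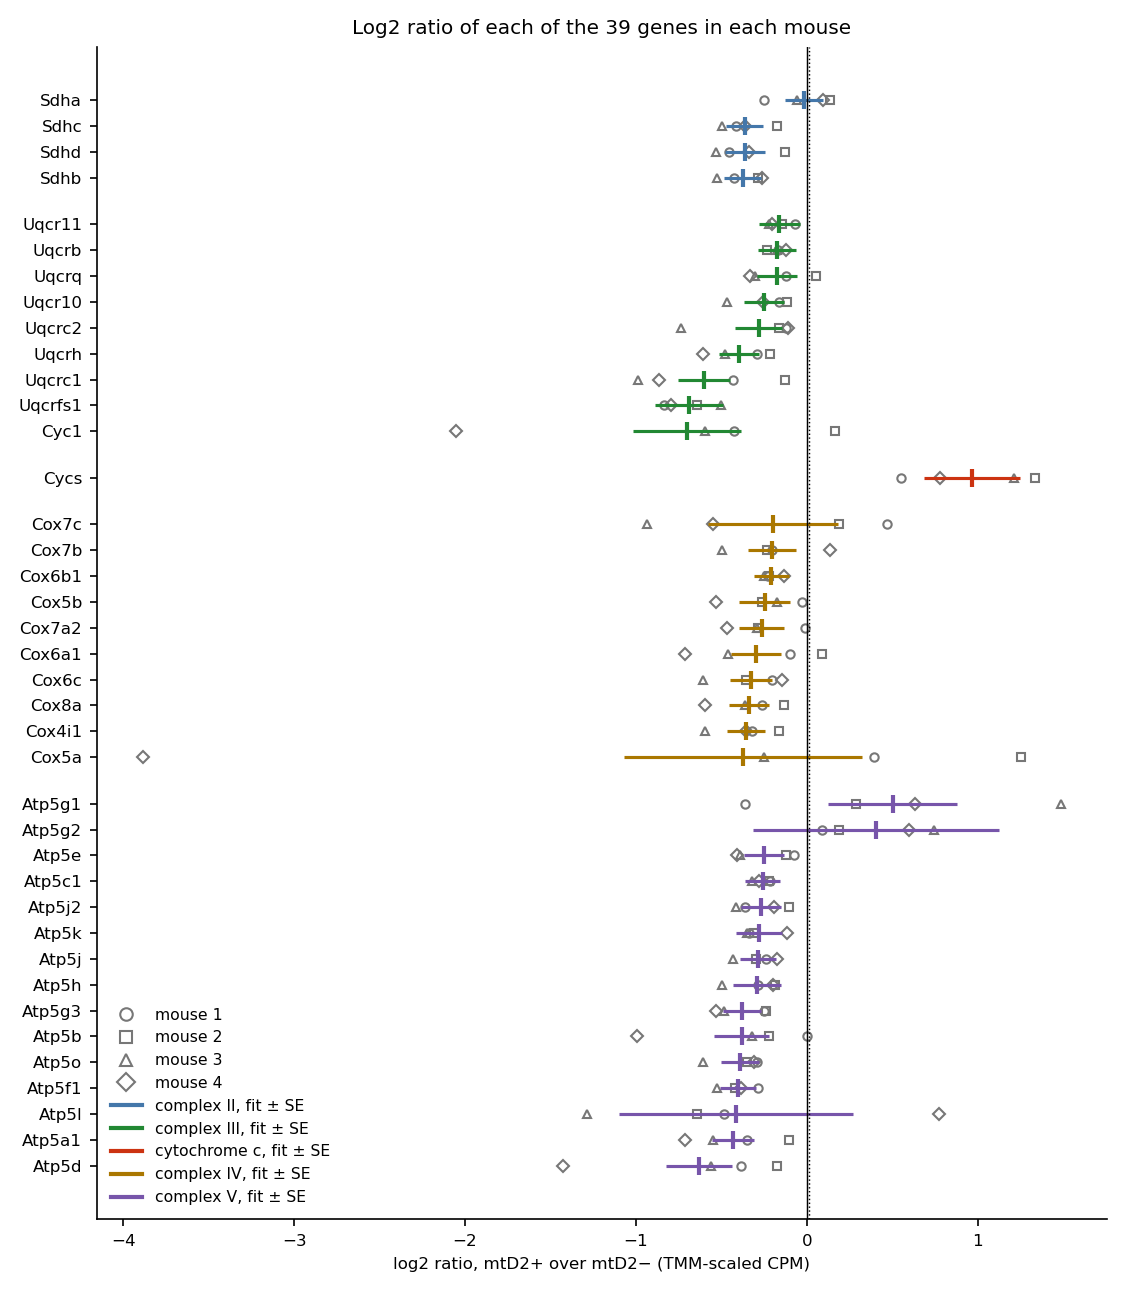
Log2 ratio of mtD2+ over mtD2− for each of the 39 genes (rows, grouped by complex), with a grey open symbol per mouse and the edgeR fit ± SE in the colour of the complex; the dotted line is the median of all 15374 genes. The fitted values of 36 genes lie left of 0, and those of Cycs, Atp5g1 and Atp5g2 lie right of it.

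Many nuclear genes of the chain are known to be driven by NRF1, by the ETS factor GABP and by YY1. The sequence before the start site is therefore shown for 4 genes, each of which holds a match to such a site. Cycs is shown as the gene with the largest positive fold change, Sdhb as the complex II gene with the smallest p, Cox6a1 as a complex IV gene that holds both kinds of match, and Uqcrh as a complex III gene whose groups did not overlap. The groups of Uqcrc1 and Uqcrfs1 did not overlap either, but their windows held no match and are not shown. Each is the 250 bases before the RefSeq start (GRCm38.p6), written 5′ to 3′ on the gene's own strand. Capitals mark matches, on either strand, to GCATGCGC (the core of the NRF1 site), CCGGAAG (an ETS site that GABP can bind) or AAGATGG (the YY1 site).
Cycs (chr6:50566570-50566819, minus strand): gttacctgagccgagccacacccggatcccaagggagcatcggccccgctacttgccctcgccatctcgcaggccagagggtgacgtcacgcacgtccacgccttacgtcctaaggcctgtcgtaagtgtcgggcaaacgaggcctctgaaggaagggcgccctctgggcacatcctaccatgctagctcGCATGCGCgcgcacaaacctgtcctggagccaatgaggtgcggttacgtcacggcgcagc
Sdhb (chr4:140961021-140961270, plus strand): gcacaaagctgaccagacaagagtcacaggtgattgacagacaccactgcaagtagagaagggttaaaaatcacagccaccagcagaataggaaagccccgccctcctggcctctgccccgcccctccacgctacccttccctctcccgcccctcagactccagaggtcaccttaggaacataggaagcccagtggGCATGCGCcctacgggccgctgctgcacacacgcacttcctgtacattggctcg
Cox6a1 (chr5:115348959-115349208, minus strand): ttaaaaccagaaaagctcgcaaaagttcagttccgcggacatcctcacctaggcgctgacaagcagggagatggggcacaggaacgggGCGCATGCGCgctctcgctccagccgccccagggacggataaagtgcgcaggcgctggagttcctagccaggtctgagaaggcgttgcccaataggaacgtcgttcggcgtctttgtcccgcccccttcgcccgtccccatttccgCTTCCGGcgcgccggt
Uqcrh (chr4:116075071-116075320, minus strand): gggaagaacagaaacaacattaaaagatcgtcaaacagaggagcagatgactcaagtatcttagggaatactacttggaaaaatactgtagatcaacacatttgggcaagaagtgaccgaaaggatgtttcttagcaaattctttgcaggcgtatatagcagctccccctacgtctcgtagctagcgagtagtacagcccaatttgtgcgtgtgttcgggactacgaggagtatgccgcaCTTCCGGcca
A RefSeq promoter was at hand for 31 of the 39 genes, with Atp5f1 entered there as Atp5pb. The NRF1 core was found in 6 of these 31 (19.4%), namely Sdhb, Cycs, Cox6a1, Atp5g2, Atp5k and Atp5l, against 2.56% of 27025 genes with windows of the same length. The ETS letters were found in 9 of 31 (29.0%), namely Sdhd, Uqcrh, Uqcr11, Cox6a1, Cox6b1, Atp5e, Atp5h, Atp5j and Atp5l, against 7.83% of genes, and the YY1 letters in 1 (3.23%), Atp5j, against 5.18%. These letters were set after a longer and looser NRF1 form (GC before the core and any base in place of its T), which 7 of 31 (22.6%) held against 4.23% of genes, had been searched. The NRF1 core stood before genes of either sign, Cycs and Atp5g2 with a positive fold change and Sdhb, Cox6a1, Atp5k and Atp5l with a negative one. A match describes letters only, and a window with no match says nothing about the factor.

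Complex II joins the citric acid cycle to the chain, and 3 of its 4 genes stood lower in mtD2+ within each mouse, while the gene of its catalytic subunit did not. Sdha (chr13:74322254-74350280) encodes the flavoprotein that oxidises succinate and is named after its values were seen. It was at 219, 214, 209 and 203 CPM in mtD2− (mice 1 to 4 in order, as for every gene that follows) and at 184, 235, 201 and 217 CPM in mtD2+. Its groups overlapped and mice 2 and 4 were higher in mtD2+ (fitted log2 fold change −0.02 with an SE of 0.11, adjusted p = 0.946), and the sign of its fold change turned under 5 of the alternatives. Sdhb (chr4:140961203-140979193), the iron-sulphur subunit, was at 128, 130.5, 120.0 and 146 CPM in mtD2− and at 95.1, 107, 83.4 and 121 CPM in mtD2+. The mtD2+ value was lower in each mouse, although mouse 4 in mtD2+ reached the level of mouse 3 in mtD2− (fitted log2 fold change −0.37 with an SE of 0.11, adjusted p = 0.0914). Sdhc (chr1:171127165-171150603) and Sdhd anchor the complex in the membrane and bind ubiquinone. Sdhc was at 133, 168, 136 and 163 CPM in mtD2− and at 99.96, 149, 96.1 and 126 CPM in mtD2+ (fitted log2 fold change −0.36 with an SE of 0.11, adjusted p = 0.099). Sdhd (chr9:50596338-50603849) was at 85.0, 96.9, 84.9 and 79.1 CPM in mtD2− and at 61.9, 88.8, 58.6 and 62.6 CPM in mtD2+ (fitted log2 fold change −0.36 with an SE of 0.12, adjusted p = 0.122). In both anchor genes mtD2+ was lower in each mouse, and mouse 2 gave the highest mtD2+ value, above the lowest mtD2− value. The differences of Sdhb, Sdhc and Sdhd were close to each other in size, and none of the 4 genes of the complex was called (0 of 4, against the 4.51% given above).

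Complex III held the genes with the largest negative log2 fold changes of the 39, Cyc1 (cytochrome c1) and Uqcrfs1 (the Rieske protein). Its 9 genes had a median log2 fold change of −0.28, 7 of them stood lower in mtD2+ within each mouse (14.9% of all genes), and 4 had mtD2+ below mtD2− with no overlap (5.57% of all genes). None was called, against 1.39% of all genes called lower. Uqcrc1 (chr9:108936648-108949640) encodes core protein 1, a structural subunit on the matrix side. It was at 248, 252, 239.6 and 345 CPM in mtD2− and at 184, 231, 121 and 189 CPM in mtD2+. Each mtD2+ library was below each mtD2− library, and the gap was widest in mice 3 and 4 (fitted log2 fold change −0.60 with an SE of 0.15, adjusted p = 0.0644). This was the smallest adjusted p of the 39 genes. It ran from 0.00196 to 0.251 over the alternatives, 6 of which called the gene, and the fold change ran from −0.76 to −0.47 when a mouse was left out. Uqcrfs1 (chr13:30540308-30545362), the Rieske iron-sulphur protein that takes electrons from ubiquinol, was at 12.7, 14.4, 17.7 and 17.1 CPM in mtD2− and at 7.11, 9.25, 12.5 and 9.87 CPM in mtD2+. Its groups did not overlap either, the highest mtD2+ value (mouse 3) lying just under the lowest mtD2− value (mouse 1) (fitted log2 fold change −0.69 with an SE of 0.20, adjusted p = 0.0899). Uqcrh (chr4:116066965-116075071), the hinge protein at the site of cytochrome c1, was at 85.9, 94.4, 82.7 and 116 CPM in mtD2− and at 70.3, 81.3, 59.4 and 76.3 CPM in mtD2+. Here too the groups were apart, with mouse 2 of mtD2+ just below mouse 3 of mtD2− (fitted log2 fold change −0.40 with an SE of 0.12, adjusted p = 0.0943).

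Among the other 6 genes of complex III, Cyc1 and Uqcrc2 depended on a single mouse; they are named after their values were seen. Cyc1, the heme subunit cytochrome c1 that reduces cytochrome c, was at 21.4, 26.0, 40.2 and 44.0 CPM in mtD2− and at 15.9, 29.1, 26.6 and 10.6 CPM in mtD2+. Its values varied widely within each group, and its mtD2+ value was higher in mouse 2 (fitted log2 fold change −0.70 with an SE of 0.32, adjusted p = 0.243); without mouse 4 the log2 fold change was −0.29. Uqcrc2, the other core protein, stood at −0.28 on the log2 scale (0.14 SE, adjusted p = 0.283), and at −0.13 without mouse 3. The small subunits Uqcrb, Uqcrq, Uqcr10 and Uqcr11 had log2 fold changes of −0.17, −0.18, −0.25 and −0.16, with adjusted p-values from 0.255 to 0.494. The median of the complex was −0.17 when mouse 3 was left out.

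Cycs, the gene of the soluble carrier that takes electrons from complex III to complex IV and that starts caspase activation once it leaves mitochondria, stood higher in mtD2+, on the other side from the genes of complexes III and IV. Cycs (chr6:50562563-50566538) was at 5.48, 3.13, 3.91 and 6.02 CPM in mtD2− and at 8.02, 7.88, 9.06 and 10.3 CPM in mtD2+. Each mtD2+ library was above each mtD2− library (fitted log2 fold change 0.96 with an SE of 0.28, adjusted p = 0.0929). Cycs has 3 annotated pseudogene copies, which held 11 counts over the 8 libraries against 1225 on the gene. How reads shared with a copy were counted is not known here, so its level is uncertain. The gene was low, with 83 to 212 counts per library, and its log2 fold change ran from 0.84 to 1.1 when a mouse was left out. It was called higher by DESeq2 and under a stricter filter on low counts, and by none of the other alternatives.

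Complex IV reduces oxygen to water on subunits of the mitochondrial genome, around which the nuclear subunits are arranged; 6 of its 10 nuclear genes stood lower in mtD2+ within each mouse (14.9% of all genes), with a median log2 fold change of −0.28, and none was called (1.39% of all genes as lower). Cox4i1 (chr8:120668222-120674207), the largest nuclear subunit and a regulator of the enzyme by ATP, was at 275, 342, 246 and 394 CPM in mtD2− and at 220.1, 306, 163 and 308 CPM in mtD2+. The mtD2+ value was lower in each mouse, the groups overlapped, and mice 2 and 4 were high in both groups (fitted log2 fold change −0.36 with an SE of 0.11, adjusted p = 0.108). Cox8a (chr19:7215158-7217616), the smallest subunit, was at 88.7, 101, 90.8 and 124 CPM in mtD2− and at 74.0, 92.4, 70.8 and 82.1 CPM in mtD2+. Its mtD2+ value was lower in each mouse, and the mtD2+ library of mouse 2 lay above the lowest mtD2− library (fitted log2 fold change −0.34 with an SE of 0.12, adjusted p = 0.147). Cox6c (chr15:35925886-35938246) was at 67.1, 84.6, 70.8 and 67.6 CPM in mtD2− and at 58.1, 66.2, 46.5 and 61.1 CPM in mtD2+. It was the only complex IV gene whose groups did not overlap (fitted log2 fold change −0.33 with an SE of 0.12, adjusted p = 0.176).

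Cox6a1 (chr5:115345642-115348981), the form of subunit 6a outside muscle and the gene of complex IV with the highest level per length, was at 139, 142, 133 and 207 CPM in mtD2− and at 129.9, 151, 96.3 and 126 CPM in mtD2+. Mouse 2 was higher in mtD2+, the mtD2− library of mouse 4 stood above all the others (fitted log2 fold change −0.30 with an SE of 0.15, adjusted p = 0.289), and the log2 fold change without mouse 4 was −0.16. Cox5a, which carries a regulatory site of the enzyme, is named after its values were seen. It was at 12.2, 12.3, 31.3 and 35.9 CPM in mtD2− and at 16.0, 29.2, 26.3 and 2.43 CPM in mtD2+. Mice 1 and 2 were higher in mtD2+, mice 3 and 4 lower, and the mtD2+ library of mouse 4 held 43 counts. Its log2 fold change, −0.38 with an SE of 0.70 (adjusted p = 0.811), became 0.46 without mouse 4, −0.73 without mouse 1 and −1.03 without mouse 2. Cox5b, Cox6b1, Cox7a2, Cox7b and Cox7c had log2 fold changes of −0.25, −0.21, −0.26, −0.20 and −0.20, with adjusted p-values from 0.29 to 0.815. Leaving out 1 mouse moved 3 of them by over 1.5 times: Cox5b to −0.16 without mouse 4, Cox7b to −0.10 without mouse 3 and −0.31 without mouse 4, and Cox7c to between −0.43 (without mouse 1) and 0.06 (without mouse 3).

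**Figure D2:**
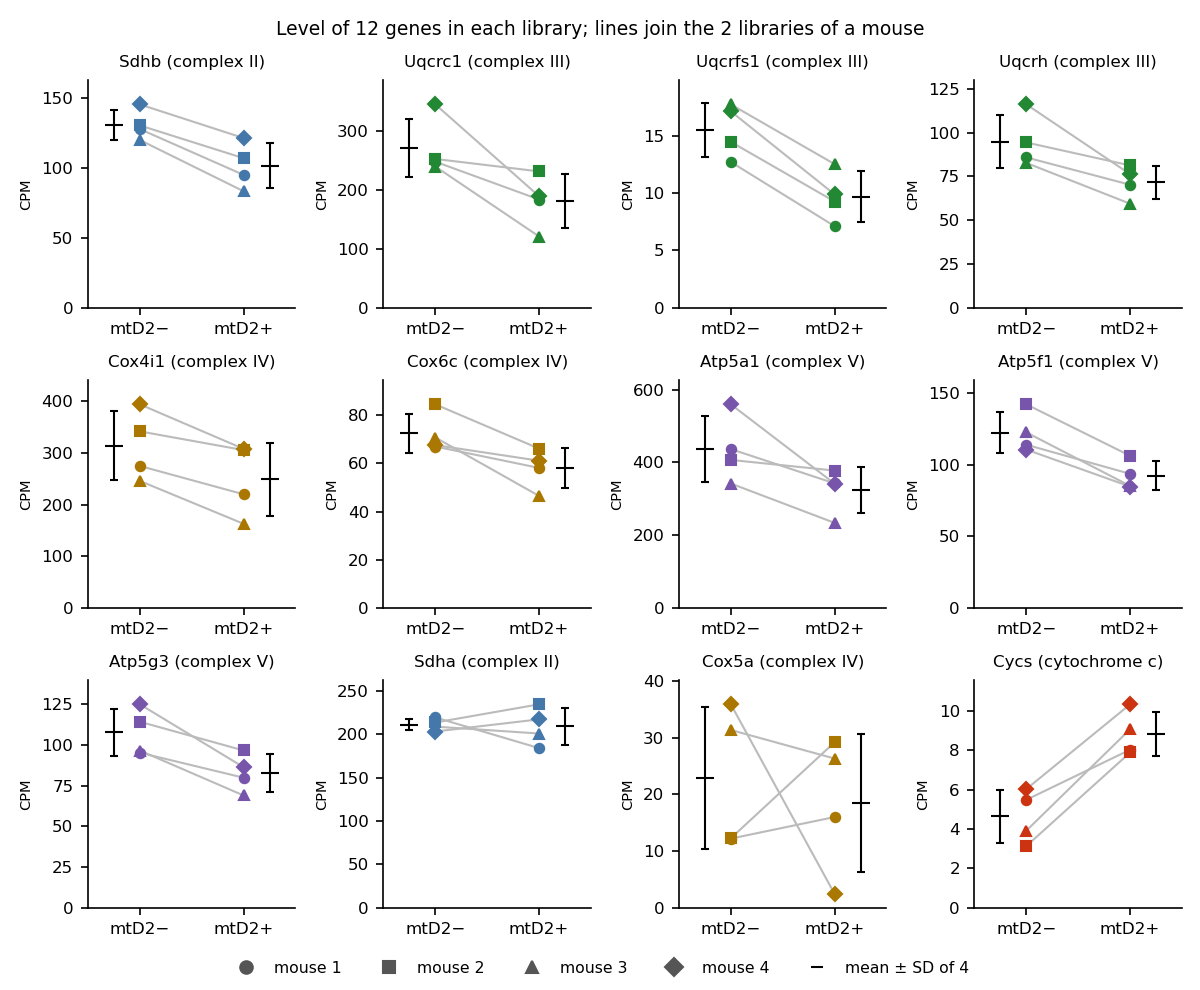
Level in CPM (vertical axis, from 0) of 12 genes in the 8 libraries; a line joins the mtD2− and mtD2+ libraries of a mouse, and the bars are the mean ± SD of each group (n = 4). All 4 lines descend in Sdhb, Uqcrc1, Uqcrfs1, Uqcrh, Cox4i1, Cox6c, Atp5a1, Atp5f1 and Atp5g3, all 4 ascend in Cycs, and the lines of Sdha and Cox5a cross.

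In complex V, the catalytic F1 head, the stalk and the proton-carrying Fo part stood on the same side: 13 of the 15 genes had a negative log2 fold change, and 12 stood lower in mtD2+ within each mouse (14.9% of all genes). By edgeR 9 were lower at an unadjusted p under 0.05 (10.1% of all genes) and 0 were called (1.39% of all genes as lower), with a median of −0.29. Atp5a1 (chr18:77773729-77782869) encodes the alpha subunit of the F1 head. It was at 437, 407, 342 and 560.0 CPM in mtD2− and at 342, 378, 234 and 342 CPM in mtD2+. The mtD2+ value was lower in each mouse, least in mouse 2 and most in mouse 4 (fitted log2 fold change −0.43 with an SE of 0.12, adjusted p = 0.0892). Atp5f1 (chr3:105942698-105960099), subunit b of the peripheral stalk that holds the head still, was at 114, 142, 123 and 111 CPM in mtD2− and at 93.7, 106, 85.2 and 84.8 CPM in mtD2+. Each mtD2+ library was below each mtD2− library (fitted log2 fold change −0.40 with an SE of 0.11, adjusted p = 0.0719). Atp5o, whose product (OSCP) ties the stalk to the head, was at 109, 131, 90.3 and 122 CPM in mtD2− and at 88.9, 103, 59.2 and 98.6 CPM in mtD2+. It was lower in mtD2+ in each mouse with overlapping groups, and its deposited span (chr16:91684398-91931687) was far longer than the gene's exons of 2259 bases (fitted log2 fold change −0.39 with an SE of 0.11, adjusted p = 0.0892).

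Of the other F1 genes, named after their values were seen, Atp5b and Atp5d rested in part on mouse 4. Atp5d, the delta subunit of the central stalk, was at 118, 129, 122 and 176 CPM in mtD2− and at 90.1, 114, 82.6 and 65.3 CPM in mtD2+. Its groups did not overlap, and mouse 4 held both the highest and the lowest value (fitted log2 fold change −0.63 with an SE of 0.19, adjusted p = 0.104); without mouse 4 the log2 fold change was −0.38. Atp5b, the catalytic beta subunit, was at 269, 305, 253 and 361 CPM in mtD2− and at 269, 261, 203 and 182 CPM in mtD2+. Its log2 fold change, −0.38 with an SE of 0.16 (adjusted p = 0.215), was −0.18 without mouse 4. The gamma and epsilon genes Atp5c1 and Atp5e had log2 fold changes of −0.26 and −0.25. The log2 ratio of the summed CPM of these 5 F1 genes was −0.22, −0.17, −0.44 and −0.76 in mice 1 to 4, and that of the 10 stalk and Fo genes was −0.29, −0.29, −0.47 and −0.29. This division by role was made after the values were seen. Mouse 4 stood farther from 0 in the head genes than in the rest, and the other mice did not differ much between these parts. Atp5h, Atp5j, Atp5j2 and Atp5k, small subunits of the stalk and of Fo, had log2 fold changes of −0.29, −0.29, −0.27 and −0.28, and Atp5l, subunit g, one of −0.41 with an SE of 0.69. For Atp5l it was −0.12 without mouse 3 and −0.80 without mouse 4.

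Subunit c, which forms the rotating ring of Fo, is encoded by 3 genes whose mature proteins are the same and whose import sequences differ, and in these libraries nearly all of the reads counted on them lay on Atp5g3. Per length, Atp5g3 made up 92.5% to 97.9% of the summed RPKM (the CPM per kilobase of exon length, as deposited) of the 3 genes in each library, Atp5g1 0.959% to 3.58% and Atp5g2 0.545% to 3.93%. Atp5g1 and Atp5g2 each have an annotated pseudogene copy and Atp5g3 has none. How the authors counted reads shared with a copy is not known here, so the shares of Atp5g1 and Atp5g2 are uncertain. Atp5g3 (chr2:73908447-73911326) was at 95.3, 114, 96.7 and 125 CPM in mtD2− and at 80.0, 96.7, 69.0 and 86.4 CPM in mtD2+. It was lower in mtD2+ in each mouse, and mouse 2 of mtD2+ lay between the mtD2− values (fitted log2 fold change −0.38 with an SE of 0.11, adjusted p = 0.0973). Atp5g1 (chr11:96068852-96075670) was at 5.56, 4.94, 2.15 and 4.23 CPM in mtD2− and at 4.33, 6.02, 6.01 and 6.54 CPM in mtD2+, lower in mouse 1 and higher in mice 2, 3 and 4 (fitted log2 fold change 0.50 with an SE of 0.38, adjusted p = 0.497). Without mouse 1 that log2 fold change was 0.79, and without mouse 3 it was 0.19. Atp5g2 (chr15:102662864-102672352) was at 0.772, 0.490, 1.35 and 0.598 CPM in mtD2− and at 0.820, 0.558, 2.25 and 0.902 CPM in mtD2+, with mouse 3 highest in both groups (fitted log2 fold change 0.40 with an SE of 0.72, adjusted p = 0.802). With 13 to 51 counts per library, a difference of the size seen in Atp5g3 was not detectable in it.

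The differences were of like size across the complexes. Their median log2 fold changes were −0.36 in complex II, −0.28 in complex III, −0.28 in complex IV and −0.29 in complex V. In mice 1 to 4 the median log2 ratio was −0.42, −0.15, −0.51 and −0.30 for complex II. For complex III it was −0.17, −0.15, −0.48 and −0.34, for complex IV −0.15, −0.19, −0.41 and −0.50, and for complex V −0.28, −0.22, −0.43 and −0.28. Within a complex the mice spread over a wider range than the 4 medians did, and no difference between complexes was tested. In summed CPM, the mtD2+ libraries were at 439 to 579 against 549.7 to 609 in mtD2− for complex II. The sums were 460.1 to 714 against 699 to 908 for complex III and 577 to 876 against 789.5 to 1088 for complex IV. For complex V they were 1072 to 1533 against 1464 to 1999.5. The ranges of the sums overlapped in each complex.

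Levels per length set the subunits of a complex side by side. The highest mean RPKM over the 8 libraries was that of Cox6a1 at 199, followed by Cox6b1 at 197, Cox4i1 at 181, Cox8a at 166, Uqcrc1 at 136, Uqcr10 at 127 and Atp5a1 at 121. The library ranges of these neighbours overlapped, as in Cox6a1 (137 to 271) and Cox6b1 (141 to 254). In complex II the 4 genes lay close together, from 41.3 for Sdhc to 60.3 for Sdhd. At the low end, 5 genes were under a mean of 10 CPM: Cycs, Cox7c, Atp5g1, Atp5g2 and Atp5l, with RPKM from 0.315 to 6.36 over the libraries, against 3.38 to 271 for the other 34. All 5 have an annotated pseudogene copy (at least 95% identity over at least 100 bases), and so have 9 of the other 34, so their counts are uncertain wherever the authors' counting could split or drop shared reads. For Atp5g2 the pseudogene held 312 counts over the 8 libraries against 178 on the gene itself. The 14 genes with a copy had a median RPKM of 24.3 and the 25 without one of 57.6, and their median log2 fold changes were −0.23 and −0.36. The part of the copies in these levels was not tested. The 34 genes at a mean of at least 10 CPM all had a negative log2 fold change, with a median of −0.31. This cut was not planned, and every gene with a positive log2 fold change lies under it. Among the 34, the sign of Sdha and of Cox5a turned under some alternatives.

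**Figure D3:**
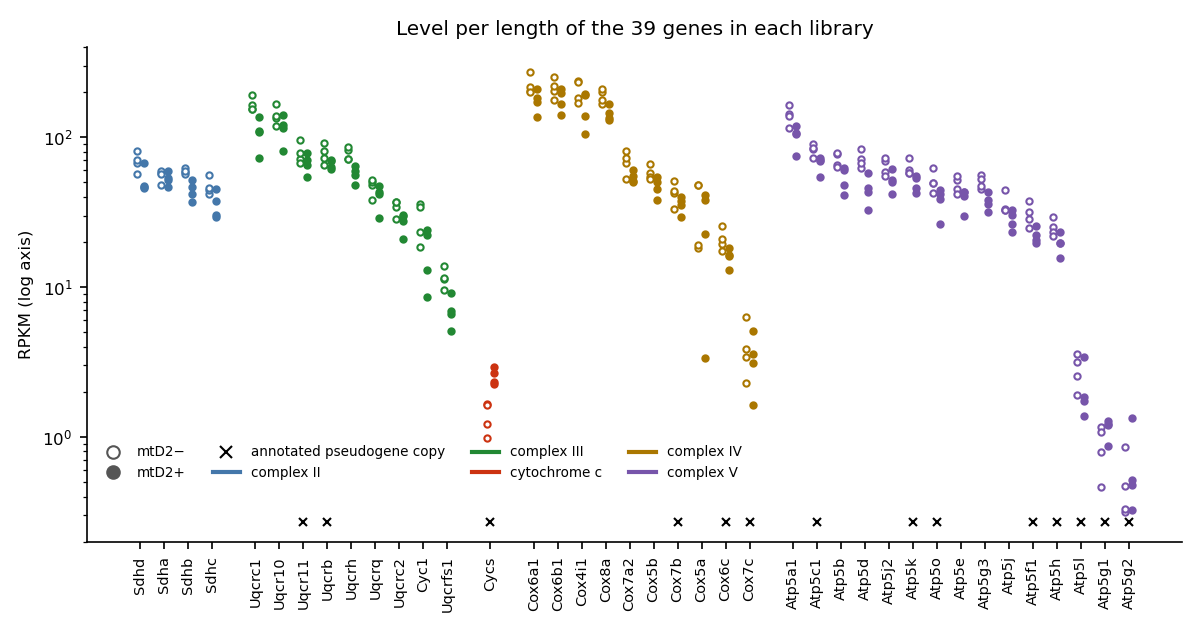
Deposited RPKM (log axis) of the 39 genes in each library, open symbols for mtD2− and filled symbols for mtD2+, grouped by complex; a cross marks a gene with an annotated pseudogene copy. Cox6a1 reaches 271 and Cycs, Cox7c, Atp5g1, Atp5g2 and Atp5l lie between 0.315 and 6.36, all 5 with a cross.

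Several complex IV subunits and cytochrome c have forms that replace them in muscle, lung, brown fat or testis, and in these macrophages the common forms had the higher levels. Cox4i1 was at 105 to 237 RPKM and its lung and hypoxia form Cox4i2 at 0.0561 to 3.16 RPKM. Cox6a1 was at 137 to 271 RPKM against 1.21 to 7.14 for the muscle form Cox6a2. Cox7a2 was at 50.1 to 80.7 RPKM against 5.00 to 8.13 for the muscle and brown fat form Cox7a1. Cox6b1 was at 141 to 254 RPKM against 1.44 to 5.20 for Cox6b2. Cox8b, the muscle and brown fat form of subunit 8, had 9 counts in all 8 libraries, and the testis cytochrome c gene Cyct, Cox7b2 and Cox8c had 0. Of the 8 such genes 4 passed the filter and 0 were called (4.51% of all genes), with the smallest p in Cox6b2 (fitted log2 fold change −0.68 with an SE of 0.36, adjusted p = 0.327).

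Other genes of the pathway were read from lists chosen by name. A list of later-named genes of complexes IV and V gave 6 tested genes: Ndufa4, Cox7a2l, Usmg5, Atp5mpl, Atpif1 and Atp5s. Not all of them are subunits of the enzymes, as Atpif1 encodes an inhibitor of complex V. Of the 6, 5 had a negative log2 fold change and 0 were called (4.51% of all genes), with a median of −0.42. The smallest p among them was that of Ndufa4, first assigned to complex I and now counted to complex IV, at 75.5 ± 6.91 CPM in mtD2− and 55.5 ± 13.6 CPM in mtD2+ (fitted log2 fold change −0.47 with an SE of 0.13, adjusted p = 0.0762). The assembly factors of complexes II to V, which build the complexes and stay out of the finished enzyme, were more mixed. Of 38 tested, 23 were negative (49.1% of all genes) and 15 positive, with a median of −0.21. In each mouse 13 stood lower in mtD2+ (14.9% of all genes), and 0 were called (4.51% of all genes). At an unadjusted p under 0.05, 7 of the 38 were lower (10.1% of all genes) and 2 higher (11% of all genes). Coa3, a factor for an early step of complex IV, had the smallest p of them, at 61.3 ± 7.81 CPM in mtD2− and 44.9 ± 7.29 CPM in mtD2+ (fitted log2 fold change −0.45 with an SE of 0.12, adjusted p = 0.0699). Tmem242, a factor for complex V, stood at −0.70 on the log2 scale (adjusted p = 0.0932), Sdhaf2, which attaches FAD to Sdha, −0.42 (adjusted p = 0.131), and Uqcc2, a complex III factor, −0.36 (adjusted p = 0.255), or −0.21 without mouse 3.

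Complex I, which feeds electrons from NADH into the chain, gave 36 tested nuclear subunits and a distribution close to that of the 39 genes: 34 negative, 24 lower in mtD2+ in each mouse (14.9% of all genes), 17 lower at an unadjusted p under 0.05 (10.1% of all genes), and a median of −0.31. Ndufab1, named after its values were seen, went the other way and was higher in mtD2+ in each mouse (fitted log2 fold change 0.73, adjusted p = 0.0899). Of the 36 genes 1 was called, as lower, against 1.39% of all genes called lower. It was the only call among the nuclear subunits of complexes I to V. Ndufc2, a membrane-arm subunit, was at 78.1, 69.1, 76.6 and 77.4 CPM in mtD2− and at 44.0, 55.2, 43.6 and 59.7 CPM in mtD2+, and was thus lower in each mouse with no overlap (fitted log2 fold change −0.58 with an SE of 0.14, adjusted p = 0.0491). The gene no longer passed without the replicate block (adjusted p = 0.0748), with upper-quartile scaling (0.0522) and with each mouse left out in turn (0.0600 to 0.194).

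Subunits of complexes III to V that the mitochondrial genome encodes stood on the other side. Of 6 such genes, mt-Cytb of complex III and mt-Co1 of complex IV were tested, while mt-Co2, mt-Atp6 and mt-Atp8 had 0 counts and mt-Co3 had 3 in all libraries. The catalytic subunit mt-Co1 was at 4393, 4623, 5040.4 and 1504 CPM in mtD2− and at 7072, 5637, 7443 and 5069 CPM in mtD2+. It was higher in mtD2+ in each mouse with no overlap between the groups, and the mtD2− library of mouse 4 was far below the rest (fitted log2 fold change 0.82 with an SE of 0.21, adjusted p = 0.066). The cytochrome b gene mt-Cytb was at 5029, 4143, 4769.5 and 1096 CPM in mtD2− and at 7389.7, 5557, 7012 and 4672 CPM in mtD2+, higher in each mouse with overlapping groups and again lowest in the mtD2− library of mouse 4 (fitted log2 fold change 0.89 with an SE of 0.25, adjusted p = 0.0872). It is named after its values were seen. Without mouse 4 the log2 fold change was 0.51 in both genes and edgeR called both (adjusted p = 0.0300 for mt-Co1 and 0.0108 for mt-Cytb). Over the alternatives the adjusted p ran from 0.000146 to 0.279 for mt-Co1 and from 0.000272 to 0.354 for mt-Cytb. Reads counted on the protein-coding genes of the mitochondrial genome took 2.07%, 2.05%, 2.26% and 0.524% of counts in mtD2− and 2.96%, 2.23%, 3.00% and 1.99% in mtD2+. With mt-Co2, mt-Co3, mt-Atp6 and mt-Atp8 at or near 0 counts, these shares cover only a part of those genes. Why these genes held almost no counts was not tested, and their counts are not read as levels.

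**Figure D4:**
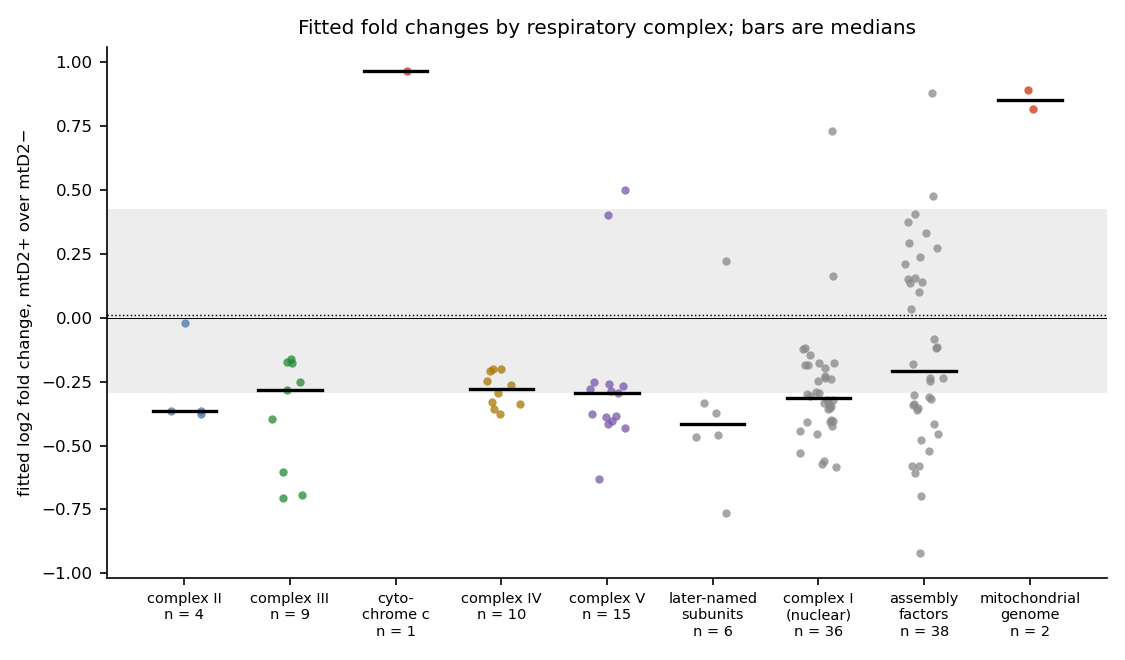
Fitted log2 fold change (mtD2+ over mtD2−, vertical axis) of each tested gene, by complex and for the other lists of the pathway; bars are medians, the grey band is the interquartile range of all 15374 genes and the dotted line their median. The medians of complexes II to V lie at −0.36 to −0.28 and that of complex I at −0.31, and both genes of the mitochondrial genome lie above 0.

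Markers of other cell types differed between the same libraries. Markers of fibroblasts and adipocyte precursors were at 1802 to 4601 CPM in sum in mtD2− and at 612 to 910 CPM in mtD2+. Their log2 ratios of the sum were −1.30, −0.99, −1.56 and −2.41 in mice 1 to 4, and 7 of these 10 genes were called lower (1.39% of all genes). Adipocyte markers were at 353 to 516 CPM in mtD2− and at 351 to 592 CPM in mtD2+, with 0 of 12 called by edgeR (4.51% of all genes). Of the 12, 8 had a positive and 4 a negative log2 fold change, and in 11 the direction differed between mice. Adipoq, an adipokine that defines the type, is named after its values were seen. It was at 8.04 ± 2.26 CPM in mtD2− and at 11.5 ± 4.26 CPM in mtD2+ (adjusted p = 0.462), and was lower in mtD2+ in mouse 3. Immediate-early and heat-shock genes of the response to tissue dissociation were at 7717 to 14815 CPM in mtD2− and at 12657 to 15257 CPM in mtD2+. The log2 ratios of their sum were 0.56, 0.75, 0.56 and 0.02 in mice 1 to 4, and 7 of 16 were called higher (3.12% of all genes). Sums of endothelial, mesothelial, T or NK cell and B cell markers reached at most 57.3 CPM in a library, and Cd79b of the B cell list was called lower. Dendritic cell markers were at 161 to 235 CPM in mtD2− and at 232 to 277 CPM in mtD2+, and neutrophil and mast cell markers at 57.0 to 79.9 CPM and at 72.2 to 99.8 CPM. No tested marker was at 0 in all 8 libraries, while Plin1 and Slc2a4 of adipocytes, Cd3e of T cells and S100a8 of neutrophils were at 0 in at least 1. The part of these markers in the values of the 39 genes was not tested.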

How the data were processed

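RNA of 8 sorted macrophage libraries was measured by RNA-seq, from RNA extracted with a RNeasy Micro kit and amplified by the SMARTer Ultra-Low method, per the labels' protocols. Per the submitters' processing notes the tools were bcl2fastq, STAR 2.0.4b, Subread and featureCounts 1.45 on GRCm38; the sources used here do not give their options, the strand setting or the handling of reads with several matches. The authors deposited whole-number counts per gene, CPM scaled to each library's total and RPKM, which is that CPM per kilobase of exon length. Symbols came from GENCODE M21, which named 40340 of the 41388 identifiers.

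The test was edgeR 4.0.16 under R 4.3.3 on the counts (TMM factors, quasi-likelihood F test, mouse as a block), over 15374 genes kept by its filter (minimum count 10, minimum total 15). The SE is the log2 fold change over the square root of F. Printed CPM were rescaled by TMM, and the deposited RPKM was used only to compare genes. The labels give the mouse of each library, and deviations of same-mouse libraries correlated at 0.026 to 0.19. With the mouse as a block, the p-values set a difference against the spread of the within-mouse differences over 4 mice. The estimate of that spread borrows from all tested genes. Libraries held 18462287 to 27464399 counts, and replicates differed by far more than counting noise (biological coefficient of variation 38.6%).

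The members, the lists and the tests were chosen with earlier results of these data known. Per-library values are given for the 3 genes of smallest p in each complex and the gene of highest RPKM, for Cycs and the subunit c genes, and in each other list for the gene of smallest p and any called; other genes named with values are said to be chosen after these were seen. Alternatives were other scalings, filters and tools (DESeq2 1.42.0, limma 3.58.1), length and GC offsets, protein-coding genes alone, no block, and leaving out each mouse.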

Additional observations from a re-analysis of the deposited data

Results flagged for a closer look

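The 8 libraries were searched for a single value far from the other 3 of its group in 86 sets, which were the 39 genes in each group and summary values, and 3 stood apart; chance marks about 1 set in 20. Sdhd was at 88.79 CPM in the mtD2+ library of mouse 2, and the next highest mtD2+ value was 62.61 CPM. Uqcrc1 was at 344.9 CPM in the mtD2− library of mouse 4, where the next highest was 252.4 CPM. Cox6a1 was at 206.5 CPM in the same mtD2− library of mouse 4, and the next highest was 142.1 CPM. Each is a high value relative to its group. The log2 fold change of Sdhd ran from −0.44 to −0.30 when a mouse was left out, and values for Uqcrc1 and Cox6a1 with a mouse left out are given with these genes.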

How the results depend on the processing

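The number of genes called among all tested was 693. It was 203 without the replicate block for the mouse, 1051 with no filter on low counts, 1241 with a stricter filter of 1 CPM, 1802 with DESeq2, 975 with limma voom, 825 with length and GC offsets, and 140 to 523 when a mouse was left out; apart from these, the alternatives stayed within 1.5 times. With scaling to library totals 642 were called, 55.8% of them higher against 69.3% before. Of the 39 genes 0 were called, and this held without the replicate block. It was 2 with library totals (Atp5a1 and Uqcrc1), 2 with no filter (Atp5d and Uqcrc1), 5 with the stricter filter, which tested 37 of them, 12 with DESeq2, 3 with limma voom, 1 with length and GC offsets and the replicate block, 1 with protein-coding genes alone, and 0 to 0 when a mouse was left out. The shares of all genes called under the same settings were 4.51% in the main test, 1.32% without the block, 4.18% with library totals, 4.38% with no filter, 11.6% with the stricter filter, 11.7% with DESeq2, 6.34% with limma voom, 5.40% with the offsets, 6.83% with protein-coding genes alone and 0.938% to 3.50% with a mouse left out. The cause was not tested. The median log2 fold change of the 39 genes was −0.35 to −0.23 when a mouse was left out and kept its direction under the alternatives run. A log2 fold change turned sign in Sdha (0.017 with upper-quartile scaling, 0.002 with the stricter filter, 0.002 with length and GC offsets, 0.007 with protein-coding genes alone, and −0.070 to 0.056 when a mouse was left out), Cox5a (−1.025 to 0.456 when a mouse was left out, positive without mouse 4) and Cox7c (−0.434 to 0.058, positive without mouse 3). A filter by group size, chosen after seeing the data, called 767 genes and 0 of the 39. Of the 39 genes, Atp5g2 and Atp5l held the fewest counts, and the reason was not tested.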
